A study of Rattus norvegicus with 4 samples.

Results

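The Homer and Shank families are 6 genes for scaffold proteins of the excitatory synapse: Homer1, Homer2, Homer3, Shank1, Shank2 and Shank3. Their probe sets were chosen by name alone, as every probe set whose platform annotation gives exactly 1 gene symbol and that symbol is one of the 6, which gave 14 of 31042 probe sets. One further probe set that lists Homer1 beside another gene was left out. The 6 genes themselves were chosen with earlier results of these data known. Hippocampal RNA was compared between stressed rats, male Wistar rats that went through chronic unpredictable mild stress for 4 weeks until they were 16 months old, and nonstressed controls of the same strain, sex and age kept in standard housing. Each group had 2 arrays, and each array carried pooled RNA of 3 rats. The design text calls the arrays biological replicates but does not say whether different rats went into the pools of a group, so that each p measures the spread between pools only, part of which may be technical. The tissue was whole hippocampus, in which fewer cells of a type and less RNA per cell cannot be told apart.

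Homer proteins carry an N-terminal EVH1 domain that grips proline-rich motifs in group I metabotropic glutamate receptors, IP3 receptors, ryanodine receptors and Shank proteins. The long forms also have a C-terminal coiled coil through which they assemble into multimers and tie these partners together. Homer1 has short forms, Homer1a and Ania-3, that lack the coiled coil, are induced by neuronal activity and loosen the links made by the long forms. Shank proteins are large scaffolds with ankyrin repeats, an SH3 domain, a PDZ domain, a long proline-rich region and a SAM domain, and they lie under PSD-95 and its SAPAP partners (the Dlgap genes), with Homer and the actin-binding protein cortactin attached to the proline-rich region.

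Signals were on the linear scale of the deposited table. Median signals of the arrays lay between 79.6 and 82.3, and the log2 signals of tested probe sets correlated with a Pearson r of 0.993 within stressed rats, 0.994 within nonstressed controls and 0.972 to 0.974 between the groups, across probe sets that are not independent replicates. A probe set was tested if its signal was at least 100 on at least 2 arrays. The tests were made with limma on log2 signals, a log2 ratio (the log2 fold change) being the mean log2 signal of stressed rats minus that of nonstressed controls with its standard error (SE), and p-values were adjusted by Benjamini-Hochberg over all 14791 tested probe sets. With 2 arrays against 2, an exact permutation test cannot give a two-sided p below 0.333.

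In stressed rats, Homer2 and part of the Homer1 probe sets fell, by up to 2.88-fold, and Shank2 and Shank3 rose by less than 1.2-fold. Of 8 tested probe sets of the 6 genes, 3 fell at adjusted p under 0.05, which were 1 of Homer2 and 2 of Homer1, against 11.8% of all tested probe sets that fell. The single probe set of Shank3 and the brighter one of Shank2 rose, 2 of 8, against 12% of all tested probe sets. None of the 5 changes passed at adjusted p under 0.05 with the methods' t-test (adjusted p between 0.0913 and 0.168). That test does not share the spread over probe sets, and the methods made no false discovery correction. The remaining 3 tested probe sets, the brightest ones of Homer1, Homer3 and Shank1, did not pass. Homer2 entered the test only through its control arrays, since both of its stressed signals were under 100, so these counts over the tested probe sets are a description. When all 14 probe sets were fitted with no filter on dim signals, the count was again 3 lower and 2 higher, against 4.32% of 31042 probe sets lower and 3.94% higher. With the thresholds of the study applied to limma (a 2-fold change or more and unadjusted p under 0.05), 1 of the 8 was lower, that of Homer2, against 1.38% of tested probe sets.

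**Figure D1:**
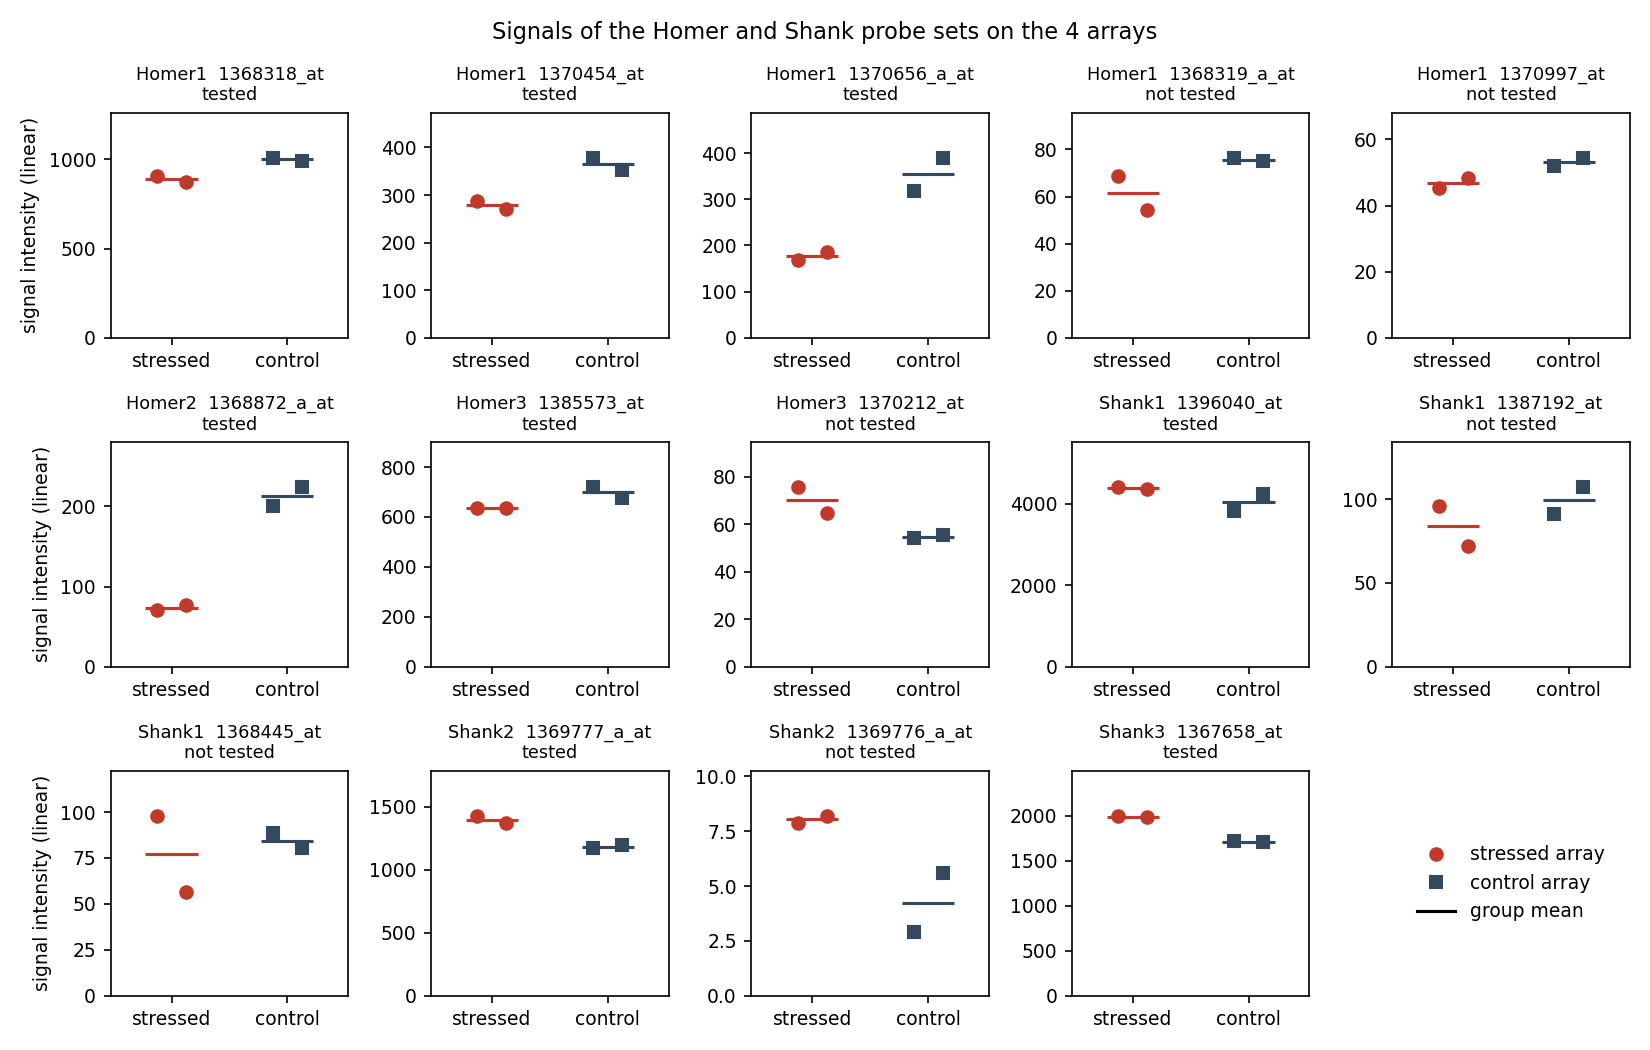
Signal intensity (linear scale, each panel starting at 0) of the 14 Homer and Shank probe sets on the 2 stressed arrays (circles) and the 2 control arrays (squares), with the group means as lines. The stressed arrays lie below the control arrays in 7 of 8 Homer panels and above them in 4 of 6 Shank panels.

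The order of the arrays was counted over all 14 probe sets, with no test. Both stressed arrays were below both control arrays at 7 of 8 Homer probe sets, against 21.9% of all 31042 probe sets. Both stressed arrays were above both control arrays at 4 of 6 Shank probe sets and at 1 Homer probe set, against 30.2% of all probe sets. The groups overlapped at the other 2, both of them dim probe sets of Shank1. Of these counts, 3 Homer and 3 Shank probe sets were not tested, and none of these passed in the fit with no filter. Probe sets of 1 gene share its transcripts and are not independent of each other.

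**Figure D2:**
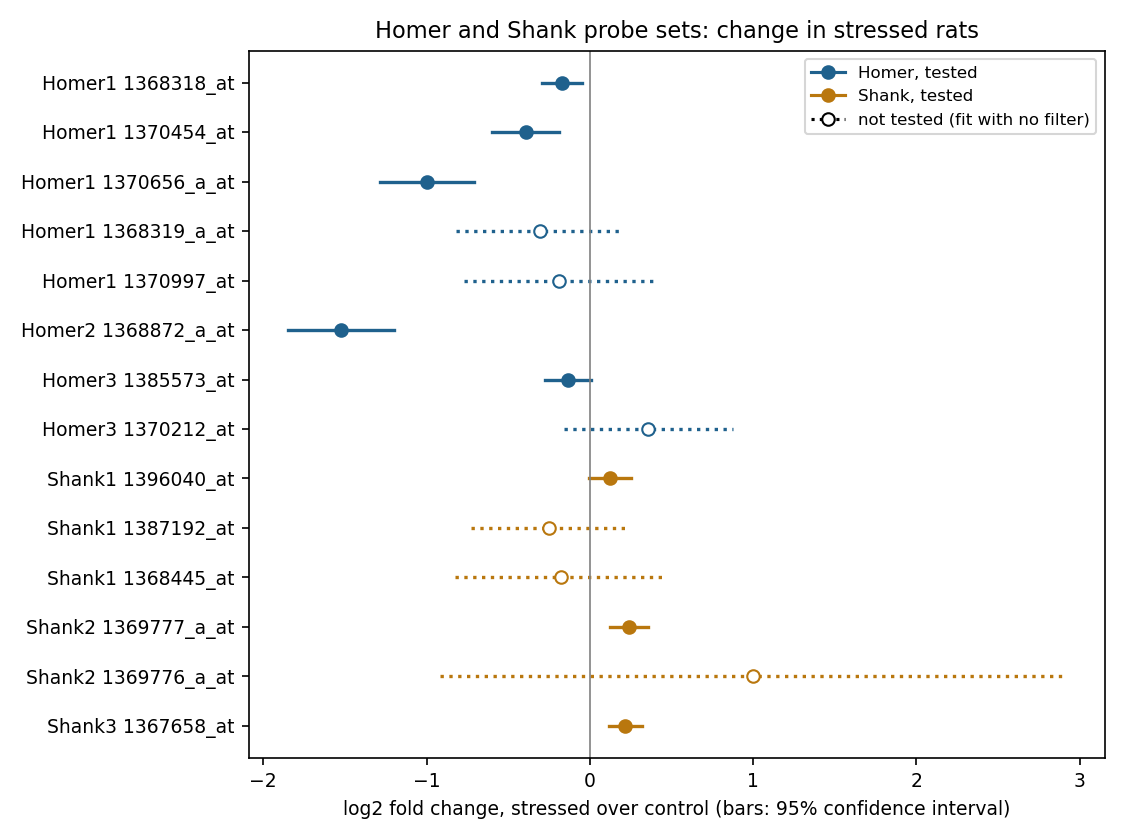
Log2 ratio, stressed over control, of each Homer (blue) and Shank (ochre) probe set, with its 95% confidence interval. Filled points were tested, and open points with dotted bars come from the fit with no filter, in which their intervals all include 0. Homer2 has the largest change of the tested probe sets, at -1.52.

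Homer1 is the family member with activity-induced short forms, and its gene spans chr2:26279012-26388279 in the RefSeq annotation of GRCr8. It had 5 probe sets, more than any other gene of the families, and all 5 were lower in stressed rats, 2 of them past the test. Probe set 1370656_a_at had signals of 168.2 and 185.4 in stressed rats, against 319.1 and 390 in nonstressed controls. The stressed signal was 50.1% of the control signal by the geometric means, and the groups were far apart. The log2 ratio was -0.998 (SE 0.12, limma adjusted p = 0.00153), just short of 2-fold. It was the 206th lowest log2 ratio of the 14791 tested probe sets.

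Probe set 1370454_at of Homer1 had signals of 286.5 and 269.6 in stressed rats, against 378 and 352 in nonstressed controls, again without overlap. The log2 ratio was -0.39 (SE 0.09, limma adjusted p = 0.0169). This call was lost without stressed replicate 2 (adjusted p = 0.0612), without control replicate 1 (adjusted p = 0.101) and without control replicate 2 (adjusted p = 0.0597), where its log2 ratio was between -0.34 and -0.44, and its adjusted p ranged from 0.0103 to 0.168 over 14 alternative settings. The brightest probe set of Homer1, 1368318_at, moved least. Its signals were 909.1 and 870.7 in stressed rats, against 1007.9 and 991.9 in nonstressed controls, with a log2 ratio of -0.17 (95% confidence interval -0.29 to -0.05, limma adjusted p = 0.0553). With a minimum signal of 200 it passed (adjusted p = 0.0476), the lowest of a range that reached 0.207 over 14 alternatives.

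The other 2 Homer1 probe sets were dim on all 4 arrays and were not tested. Probe set 1368319_a_at had signals of 68.8 and 54.3 in stressed rats, against 76.4 and 74.9 in nonstressed controls, a log2 ratio of -0.31. Probe set 1370997_at had signals of 45.4 and 48.2 in stressed rats, against 52.1 and 54.4 in nonstressed controls, a log2 ratio of -0.19. In the fit with no filter neither passed the test, with 95% confidence intervals of -0.82 to 0.20 and -0.77 to 0.40.

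The probe sets of Homer1 did not move by the same amount. The log2 ratio of the brightest probe set exceeded that of 1370656_a_at by 0.83 (95% confidence interval 0.50 to 1.16, adjusted p = 0.00391 from limma on the differences between probe sets of 1 gene). It exceeded that of 1370454_at by 0.22 (95% confidence interval -0.02 to 0.47, adjusted p = 0.163). Unequal change between probe sets of 1 gene was common on these arrays, since 27.2% of the 2363 such pairs passed the same test. The platform annotation does not say which of the 5 probe sets read short or long Homer1 forms. It ties 1368318_at to the curated RefSeq transcript of the gene and the other 4 to sequences that the RefSeq table used here does not list. The unequal falls are therefore given by probe set and not by form.

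The promoter windows of Homer1, which had falling probe sets, and Shank3, which rose, are shown because they are the members past the test for which the RefSeq table of GRCr8 held a window. Each runs 5′ to 3′ on the strand of the gene, from 250 bases before to 50 bases after its start. The Homer1 window is chr2:26278762-26279061 and the Shank3 window chr7:122448073-122448372, both on the plus strand. Capitals mark a match to a searched motif.
Homer1: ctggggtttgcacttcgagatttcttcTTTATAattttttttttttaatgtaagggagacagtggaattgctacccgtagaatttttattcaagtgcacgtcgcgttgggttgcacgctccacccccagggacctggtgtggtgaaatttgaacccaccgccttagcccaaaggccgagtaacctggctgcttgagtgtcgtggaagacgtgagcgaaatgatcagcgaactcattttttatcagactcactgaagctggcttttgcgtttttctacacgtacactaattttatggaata
Shank3: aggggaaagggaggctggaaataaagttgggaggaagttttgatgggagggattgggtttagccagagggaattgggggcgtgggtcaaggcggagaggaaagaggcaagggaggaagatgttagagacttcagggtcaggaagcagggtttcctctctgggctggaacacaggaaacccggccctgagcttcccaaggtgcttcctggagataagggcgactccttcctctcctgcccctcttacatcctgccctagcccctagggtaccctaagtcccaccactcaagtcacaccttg

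The motifs were searched on both strands of these windows and of 33469 windows of the same length. They were the cAMP response element TGACGTCA (1.83% of all windows) and its half-site TGACG (21.2%), which lies within it. They were also the glucocorticoid response half-site AGAACA (20.7%) and the full palindromic glucocorticoid response element (0.0149%), which holds that half-site on both strands, the E-box CACGTG (6.42%) and the TATA core TATAAA (14.2%). The Homer1 window held 1 match, a TATA core on the minus strand that begins at position -223 relative to the start, and the Shank3 window held none. The GC content was 44.7% in the Homer1 window and 56.3% in the Shank3 window, against a median of 51.7% over all windows.

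Homer2, a long-form scaffold without a known activity-induced short form, showed the largest change of the 6 genes. Its only probe set, 1368872_a_at, had signals of 71 and 76.5 in stressed rats, against 200.4 and 224.2 in nonstressed controls. Every control signal was more than 2 times every stressed signal. The mean was 73.75 ± 3.89 in stressed rats and 212.3 ± 16.8 in nonstressed controls (SD, n = 2 arrays each), a log2 ratio of -1.52 (SE 0.14, limma adjusted p = 3.66e-04), or 2.88-fold lower. Among all tested probe sets this was the 64th lowest log2 ratio. Neither stressed signal reached 100, and detection calls were not used here. With 50 added to every signal, the log2 ratio was -1.08 (adjusted p = 3.26e-04, range 3.30e-05 to 0.102 over 14 alternatives). The upper end of that range is the test the methods name.

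The tested probe sets most like that of Homer2 were ranked by the distance between log2 signals centred on their mean over the 4 arrays, among 11619 probe sets of other single genes. The 5 nearest were those of Cnr1, Zyg11b, Slc6a6, Gad2 and Rgs7bp, at distances of 0.09 to 0.12. Cnr1 encodes the CB1 cannabinoid receptor, and it had signals of 99.5 and 106.1 in stressed rats, against 259.3 and 301 in nonstressed controls. Gad2 encodes a GABA-synthesising enzyme and had signals of 138.1 and 151.7 in stressed rats, against 366.4 and 404.4 in nonstressed controls. Slc6a6 encodes the taurine transporter, Rgs7bp a protein that binds RGS proteins of the R7 family and Zyg11b a substrate-recognition part of a ubiquitin ligase. Slc6a6 had signals of 62.8 and 70.6 in stressed rats, against 187.4 and 190.4 in nonstressed controls. Like Homer2, it entered the test only through its control arrays. The choice of nearest probe sets fixes the size and direction of their change, so their log2 ratios, between -1.41 and -1.51, are a description of the 5 only.

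Homer3 is a long-form scaffold best known from cerebellar Purkinje cells. Its brighter probe set, 1385573_at, had signals of 637.6 and 637.5 in stressed rats, against 720.2 and 677.5 in nonstressed controls. The stressed arrays were below the control arrays by a small margin, with a log2 ratio of -0.13 (95% confidence interval -0.27 to 0.01, limma adjusted p = 0.157). The dim probe set 1370212_at was the exception in direction among Homer probe sets. It had signals of 75.7 and 64.8 in stressed rats, against 54.1 and 55.3 in nonstressed controls, a log2 ratio of 0.36 that did not pass in the fit with no filter (95% confidence interval -0.16 to 0.87).

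Shank3, whose loss causes Phelan-McDermid syndrome in people, rose by a small amount with tight replicates. Its probe set 1367658_at had signals of 1998.7 and 1982.3 in stressed rats, against 1722.6 and 1704 in nonstressed controls. The mean was 1990.5 ± 11.6 in stressed rats and 1713.3 ± 13.2 in nonstressed controls (SD, n = 2 arrays each), and the log2 ratio was 0.22 (SE 0.04, limma adjusted p = 0.0116), or 1.16-fold higher. Shank2 moved by a like amount at 1369777_a_at, with signals of 1428.7 and 1371.5 in stressed rats, against 1174.5 and 1196.1 in nonstressed controls. Its log2 ratio was 0.24 (SE 0.05, limma adjusted p = 0.0121). The other Shank2 probe set, 1369776_a_at, had signals of 7.9 and 8.2 in stressed rats, against 2.9 and 5.6 in nonstressed controls. These are among the lowest signals of the families, and no change was read from them.

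The calls of Shank2 and Shank3 depended on how the spread was shared over probe sets. Without an intensity trend in the moderation, the adjusted p was 0.0690 for Shank2 (range 0.00974 to 0.145 over 14 alternatives) and 0.0762 for Shank3 (range 0.00860 to 0.0913). The call of Shank2 was also lost without stressed replicate 1 (adjusted p = 0.0582), and both calls were lost without control replicate 1 (adjusted p = 0.0716 for Shank2 and 0.0571 for Shank3) or control replicate 2 (adjusted p = 0.0616 and 0.0733). Without 1 array the log2 ratio stayed between 0.21 and 0.27 for Shank2 and between 0.21 and 0.22 for Shank3.

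Shank1, the third gene of the family, had the brightest probe set of the 14. Probe set 1396040_at had signals of 4415 and 4368.7 in stressed rats, against 3829 and 4240.6 in nonstressed controls. The stressed arrays lay above both control arrays, which differed from each other more than the stressed ones did, and the log2 ratio of 0.12 did not pass (95% confidence interval -0.01 to 0.25, limma adjusted p = 0.147). The dim probe sets 1387192_at and 1368445_at overlapped between the groups. Probe set 1387192_at had 96.2 and 72.3 in stressed rats, against 91.4 and 107.4 in nonstressed controls, and 1368445_at had 97.9 and 56.7 in stressed rats, against 88.5 and 80.2 in nonstressed controls.

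**Figure D3:**
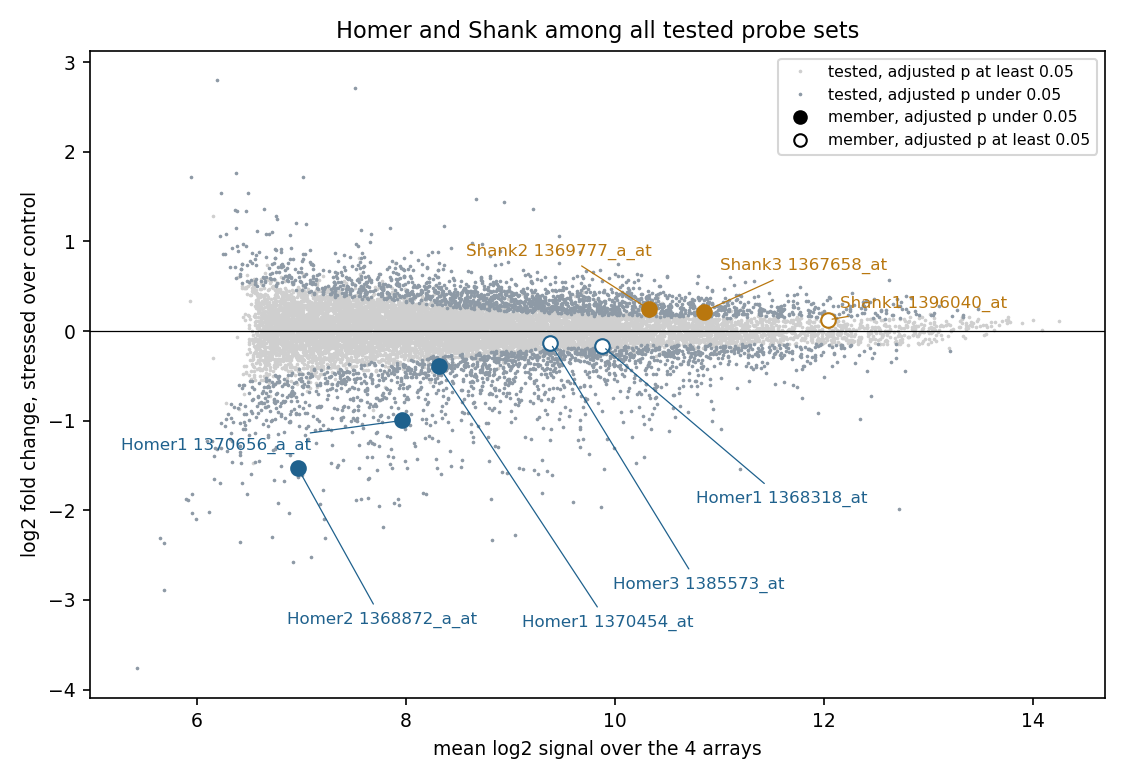
Log2 ratio, stressed over control, against the mean log2 signal for all 14791 tested probe sets (grey, darker where adjusted p was under 0.05), with the 8 tested Homer (blue) and Shank (ochre) probe sets. Homer2 and Homer1 1370656_a_at lie among the low outlying points, and the Shank probe sets are bright and close to 0.

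The change of Homer genes was set against that of Shank genes on the same arrays. For each of the 15 pairs of the 6 genes, the difference of log2 signals at their brightest tested probe sets was compared between the groups by limma, in 1 fit with all pairs of probe sets of 1 gene, and p-values were adjusted over all 2378 pairs. The pairs share probe sets and are not independent. Of the 15 pairs 10 passed, against 27.2% of the pairs of probe sets of 1 gene in the same fit. No such share was computed for pairs of different genes. Of the 10, 5 involve Homer2, which passed the filter only through its control arrays, so its differences are a description. They were a log2 difference of 1.36 for Homer1 minus Homer2 (adjusted p = 3.03e-04) and of -1.39 for Homer2 minus Homer3 (adjusted p = 3.68e-04). Homer2 minus each Shank gene came to -1.65 for Shank1, -1.76 for Shank2 and -1.74 for Shank3, with adjusted p of 3.50e-05, 6.74e-05 and 6.20e-05.

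Small differences between the Homer and Shank families also passed at the brightest probe sets. Homer1 minus Shank2 was -0.41 (95% confidence interval -0.60 to -0.22, adjusted p = 0.00786), Homer1 minus Shank3 was -0.38 (95% confidence interval -0.56 to -0.21, adjusted p = 0.00775) and Homer1 minus Shank1 was -0.29 (95% confidence interval -0.48 to -0.11, adjusted p = 0.0273). Homer3 minus Shank2 and Homer3 minus Shank3 were -0.37 and -0.35 (adjusted p = 0.0195 and 0.0168). The differences of Homer1 from Shank1 and of Homer3 from Shank2 and Shank3 were lost without control replicate 1 (adjusted p = 0.171, 0.110 and 0.0897) and with the replicate number as a block (adjusted p = 0.0513, 0.0551 and 0.0502). The same 3 differences were also lost without an intensity trend (limma adjusted p = 0.117, 0.0538 and 0.0564). Over 12 alternatives the adjusted p of these differences ranged from 0.00850 to 0.235, from 0.00734 to 0.146 and from 0.00701 to 0.103.

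Within the Shank family no pair passed. The difference of Shank1 from Shank2 was -0.12 (95% confidence interval -0.28 to 0.05), that of Shank1 from Shank3 -0.09 (-0.26 to 0.07) and that of Shank2 from Shank3 0.02 (-0.15 to 0.19). Homer1 minus Homer3 was -0.04 (95% confidence interval -0.25 to 0.18), and Homer3 minus Shank1, at -0.26 (adjusted p = 0.0727), did not pass either.

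**Figure D4:**
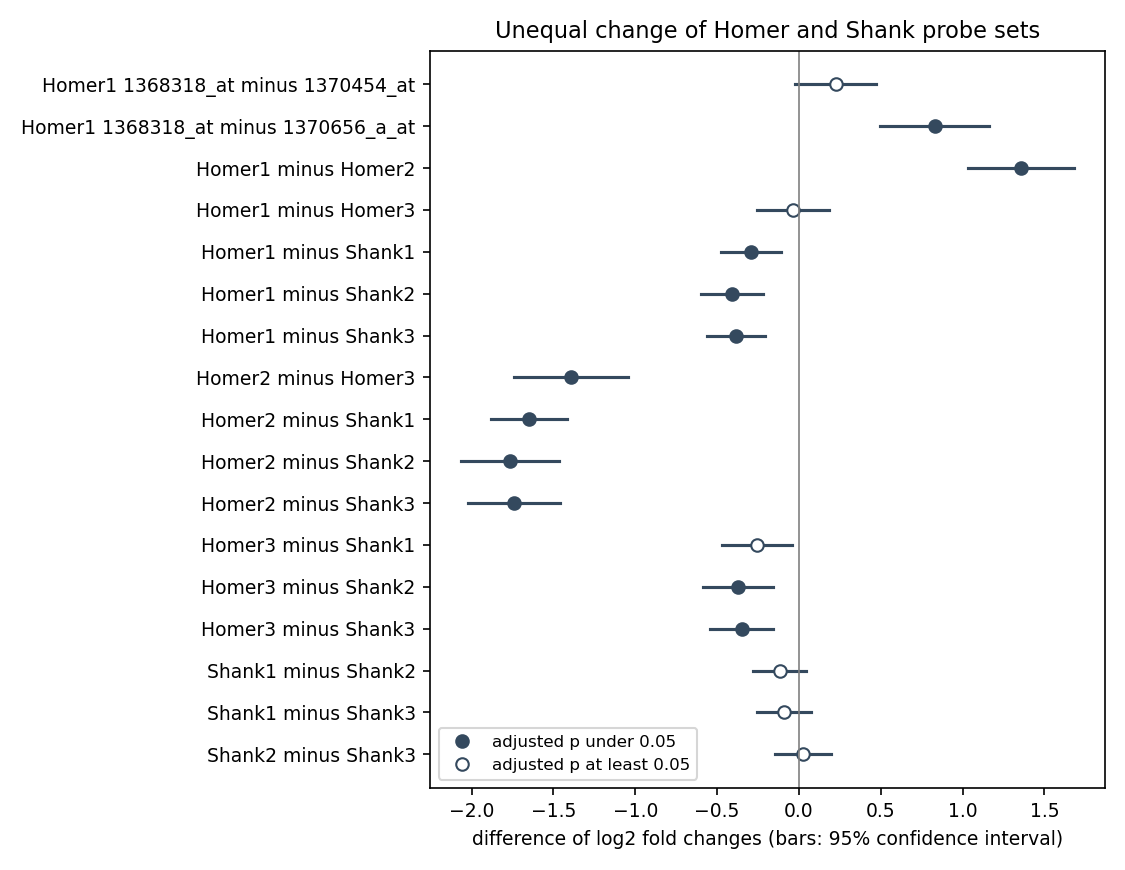
Difference between the log2 ratios of 2 probe sets on the same arrays, with its 95% confidence interval, for the 2 pairs within Homer1 and the 15 pairs of genes at their brightest tested probe sets. Filled points passed adjusted p under 0.05. The pairs with Homer2 lie farthest from 0, and the pairs within the Shank family include 0.

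The proteins that Homer and Shank hold together were followed through 5 lists, which were chosen with earlier results of these data known. The lists held 83 genes in all, of which 58 were tested, each at its brightest tested probe set. Of these, 11 rose and 13 fell at adjusted p under 0.05, against 11.1% and 10.2% of all 9264 tested genes. The median log2 ratio of the 58 was 0.04, against 0.02 over all tested genes. When any tested probe set of a gene could make the call, 14 rose and 15 fell, against 12.3% and 13.8% of all tested genes. Without an intensity trend 4 rose and 10 fell.

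Among binding partners of Homer, the metabotropic receptor gene Grm5 fell strongly, and ryanodine receptor genes gave calls in both directions. Of 12 tested genes 2 rose, 2 fell and 8 did not pass, with a median of 0.11. Grm5, the group I metabotropic receptor that Homer binds at its C-terminal tail, had signals of 362.4 and 336.5 in stressed rats, against 1040.6 and 1006.3 in nonstressed controls, a log2 ratio of -1.55 (limma adjusted p = 1.63e-05). Arhgap44, whose protein is also on the list of Shank partners, had a log2 ratio of -0.27 (adjusted p = 0.00666), which call was lost without control replicate 2. The ryanodine receptor gene Ryr2 had a log2 ratio of 0.30 at its brighter probe set (adjusted p = 0.00352) and of -0.71 at its other one (adjusted p = 8.29e-04). Ryr3 was 0.34 higher on the log2 scale (adjusted p = 0.0359), a call lost in each removal of 1 array.

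Among binding partners of Shank, Abi2, Dnm2, Sptan1 and Camk2a rose and Abi1 and Arhgap44 fell. Of 19 tested genes 4 rose and 2 fell, with a median of 0.06, and 7 rose when any tested probe set could make the call. Abi2, an Abl interactor of the actin-regulating WAVE complex, rose by 0.43 on the log2 scale (adjusted p = 0.00196), while its relative Abi1 had -0.23 at its brighter probe set (adjusted p = 0.0139) and 0.04 at its other one (adjusted p = 0.631). The call of Abi1 was lost in all removals of 1 array but that of stressed replicate 2. Dnm2, a dynamin of endocytosis, had signals of 160.3 and 150.1 in stressed rats, against 94.1 and 54.9 in nonstressed controls, with unequal controls, and its log2 ratio of 1.11 (adjusted p = 0.0155) was lost without control replicate 2. It reached a signal of 100 only in stressed rats, so that it entered the test through the group where it was high. Sptan1, the spectrin that binds the ankyrin repeats of Shank, rose by 0.22 (adjusted p = 0.0191), which held only in the removal of control replicate 2 among the 4 removals. The SAPAP genes that link Shank to PSD-95 did not pass at their brightest probe sets, with log2 ratios of 0.01 for Dlgap1 and 0.12 each for Dlgap3 and Dlgap4, the 3 being named after their values were seen. The dimmer probe set of Dlgap3 did rise, with signals of 232 and 250 in stressed rats, against 156.3 and 160.6 in nonstressed controls (log2 ratio 0.60, adjusted p = 0.00727). Camk2a, the alpha subunit of CaM kinase II, was the other riser, at 0.18 (adjusted p = 0.0237), and is named outside the rule for partner genes.

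Downstream of group I metabotropic receptors, 2 of 6 tested genes rose and 1 fell, with a median of -0.01. Gna11, a G protein alpha subunit of the Gq class that these receptors use, had signals of 154.5 and 147.5 in stressed rats, against 348.1 and 333.3 in nonstressed controls, a log2 ratio of -1.17 (limma adjusted p = 2.70e-04). Dgkz, a diacylglycerol kinase, rose by 0.23 (adjusted p = 0.00911), lost without control replicate 1. Plcb1, the phospholipase that the G protein drives, was 0.17 higher (adjusted p = 0.0389), and this was lost in each removal of 1 array.

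In the layer of PSD-95 and the receptors above it, 2 of 9 tested genes rose and 4 fell, with a median of -0.04. The NMDA receptor subunit genes Grin2b and Grin2a had log2 ratios of -2.18 and -0.91 (adjusted p = 2.44e-05 and 7.85e-05 from limma), and the AMPA receptor subunit gene Gria1 had -0.39 (adjusted p = 0.00153). For Grin2b this was a signal of 102 and 104.4 in stressed rats, against 490.8 and 446.5 in nonstressed controls. Gria2, another AMPA receptor subunit gene and named outside the rule, had -0.16 at its brighter probe set (adjusted p = 0.0368). Its other probe set went the other way, at 0.12, and did not pass (adjusted p = 0.0947). Nlgn1, a neuroligin that binds PSD-95, rose by 0.21 (adjusted p = 0.0222) and Dlg3, which encodes SAP102, by 0.25 (adjusted p = 0.0417), each call being lost in 3 of the 4 removals of 1 array, all but that of stressed replicate 2 for Nlgn1 and all but that of control replicate 1 for Dlg3. The value of Nlgn1 was that of its brighter probe set, and its other one had 0.12 (adjusted p = 0.315). Dlg4, which encodes PSD-95 and is named after its values were seen, had -0.04 at its brighter probe set (adjusted p = 0.601). At its other one Dlg4 had -1.13 (adjusted p = 5.03e-04).

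Genes that neuronal activity induces, as it does the short Homer1 forms, included 5 that fell and 1 that rose among 14 tested, with a median of -0.15. Fos, a transcription factor of the AP-1 complex, had a log2 ratio of -0.76 (limma adjusted p = 0.00299) and Bdnf, a neurotrophin, one of -0.58 (adjusted p = 0.00124). The orphan nuclear receptor gene Nr4a3 had -0.63 at its brighter probe set (adjusted p = 1.94e-04) and 0.07 at its other one (adjusted p = 0.406), whereas its relative Nr4a2 had 0.42 (adjusted p = 0.00522) at its brighter probe set and 0.13 (adjusted p = 0.570) at its other one. Arc, which acts in synaptic receptor traffic, and Egr1, a zinc-finger transcription factor, were the other 2 that fell, at -0.27 and -0.22 (adjusted p = 0.0209 and 0.0331), and are named outside the rule.

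**Figure D5:**
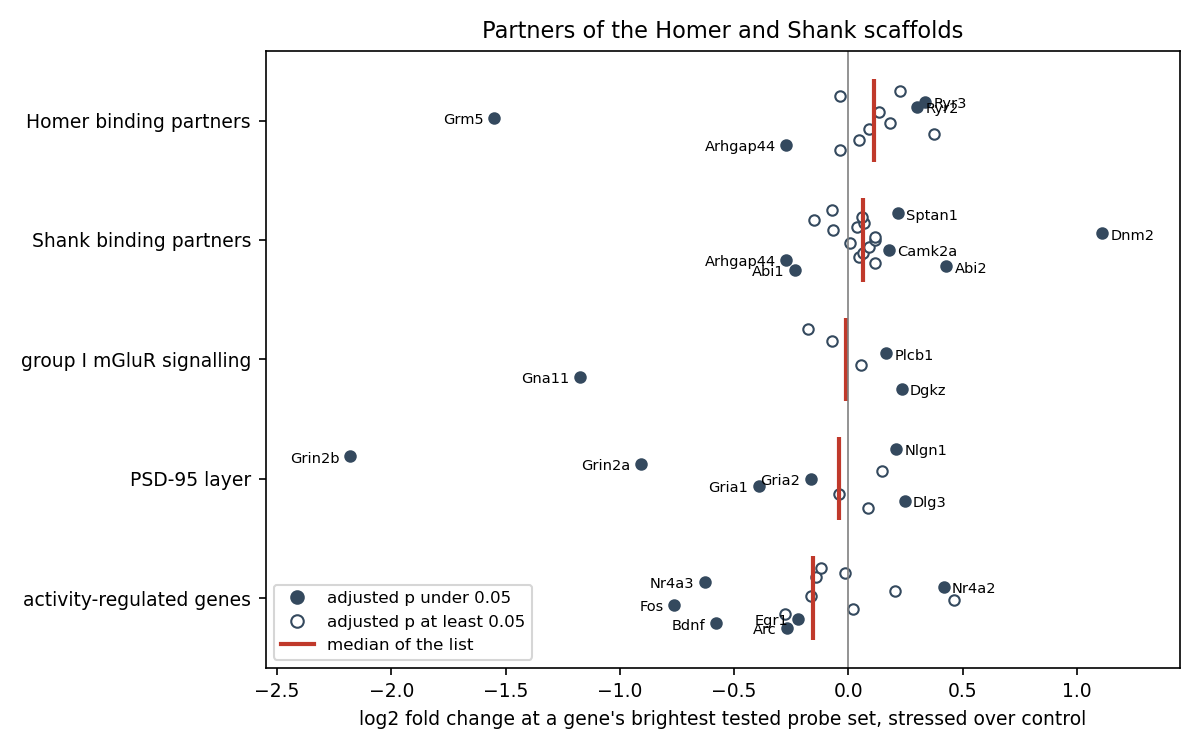
Log2 ratio, stressed over control, of the tested genes of 5 partner lists, each at its brightest tested probe set, with the median of each list as a red line. Filled points passed adjusted p under 0.05 and are named. The medians lie between -0.15 and 0.11, and Grm5, Gna11, Grin2b and Grin2a stand at the low end of their lists.

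Markers of hippocampal neurons were present, and markers of some other cell types moved with the groups. Each marker was counted at its brightest tested probe set, at which 11.1% of all 9264 tested genes rose and 10.2% fell. Of 11 markers of pyramidal and granule cells 10 were tested, Dsp and Camk2a rose and none fell (limma), and their summed signals were 13622 to 13815 in stressed rats and 13006 to 13312 in nonstressed controls. Of 10 tested interneuron markers 4 fell, Gad2, Slc32a1, Npy and Cck, and none rose. Their summed signals were 11537 to 11984 in stressed rats and 12986 to 13296 in nonstressed controls. Of 5 tested striatum markers 3 fell, Penk, Pde10a and Foxp1, and none rose. Their summed signals were 3081 to 3123 in stressed rats and 3579 to 3728 in nonstressed controls. For choroid plexus, 7 of 9 tested markers rose and none fell (summed signals 19211 to 20532 in stressed rats and 14706 to 16456 in nonstressed controls). For endothelial and mural cells, 4 of 8 tested markers rose, Flt1, Vwf, Slco1a4 and Pdgfrb, and none fell. Their summed signals were 4048 to 4065 in stressed rats and 3441 to 3498 in nonstressed controls. Among the markers that rose, Dsp, Pdgfrb and the choroid plexus markers Cldn2 and Aqp1 reached a signal of 100 only in stressed rats and entered the test through that group. No marker of these lists was at a signal of 0 on any array. The part of these cell types in the changes of Homer and Shank genes was not tested.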

How the data were processed

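Hippocampal RNA of 2 stressed and 2 control arrays was measured on Affymetrix Rat Genome 230 2.0 arrays. The deposited signal intensity of each probe set was made by the authors with GCOS 1.4, each array being scaled to a target value of 300. No normalization between arrays was added here. The number of arrays limits the precision.

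Control probe sets of the manufacturer (57) were dropped. Signals were taken to log2, with zeros set to 0.1. A probe set entered the test if 2 or more arrays reached a signal of 100, which kept 14791 of 31042. The group means were compared with limma 3.58.1 (R 4.3.3), moderated with an intensity trend and with no replicate block, and p-values were adjusted by Benjamini-Hochberg over all tested probe sets. Differences between probe sets were fitted the same way on per-array differences of log2 signals. Those between genes had been planned with an adjustment over the 15 pairs alone and were instead adjusted over all 2378 pairs. The main fit of single probe sets was tested on simulated data, and the other fits were not.

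Symbols came from the platform annotation, updated through RefSeq (GRCr8, used also for gene positions and promoters). Of the probe sets, 20826 had 1 gene, of which 20758 matched to RefSeq, 436 had several genes and 9780 none. Members, gene lists, motifs and tests were chosen with earlier results of these data known. Named in the text were all probe sets of the 6 genes, up to 3 partner genes of each list and direction with the smallest p past the test, and the 5 probe sets nearest to the member with the largest change. Markers of pyramidal and granule cells, interneurons, astrocytes, oligodendrocytes, microglia, endothelial and mural cells, choroid plexus, striatum, thalamus, cerebellum and cortex layers and a list of reference genes were counted, each gene at its brightest tested probe set.

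The tests were repeated with quantile-normalized or median-centred signals, with no filter or a minimum signal of 200, with an offset of 50 or a floor at 50, without an intensity trend, with the methods' t-test, with replicate numbers as blocks, and leaving out each array. A crossed pairing was added after seeing the data. Figures were drawn with python 3.11.15 and matplotlib 3.10.9.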

Additional observations from a re-analysis of the deposited data

How the results depend on the processing

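All 8 tested probe sets of the 6 genes kept their direction in every alternative. The calls depended on sharing the spread over probe sets. The methods' t-test on log2 signals called 0 of them higher and 0 lower at adjusted p under 0.05 (2 higher and 4 lower at unadjusted p under 0.05), 0 of the 15 differences between genes (9 unadjusted) and 0 of the 2 differences within Homer1 (2 unadjusted), but it called only 18 of all 14791 probe sets. Without an intensity trend 0 were higher (2 unadjusted) and 3 lower, and 7 of the 15 differences between genes passed, against 10. In that setting 4 partner genes were higher, against 11, while the t-test called no partner gene that the rule named. When 1 array was left out, which leaves 1 array in a group that is assumed to vary like the others, the number higher ranged from 0 to 2 and the number lower from 2 to 3. The number at 2-fold or more with unadjusted p under 0.05 was 2 with quantile normalization and 2 with median centring, against 1, and ranged from 1 to 2 without 1 array, the second being Homer1 1370656_a_at at log2 fold changes of -1.003 and -1.02, -1.07 without stressed replicate 2 and -1.14 without control replicate 1. With the replicate block 2 were higher and 3 lower, and 7 of the 15 differences passed, against 10. The labels do not say that a number marks a shared batch, and deviations of arrays with the same number correlated at -0.11 across probe sets. With crossed numbers 2 were higher, 3 lower and 11 differences passed. Homer1 1368318_at passed only with a minimum signal of 200. No detection calls or probe sequences were used here, which limits what can be said of the 6 dim probe sets and of Homer1 forms.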

Other observations

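The remaining lists were counted with each gene at its brightest tested probe set. There, 11.1% of all 9264 tested genes rose and 10.2% fell. Of 8 tested astrocyte markers limma called 1 higher, the glutamate transporter gene Slc1a3, and 0 lower. At other tested probe sets Slc1a3 had a log2 fold change of -0.43 (limma adjusted p = 0.0125) and Aqp4 one of -1.30 (adjusted p = 9.87e-05). Of 10 oligodendrocyte markers 2 rose (Mag and Cspg4) and 2 fell (Cnp and Mal), where Cspg4 reached a signal of 100 only in stressed rats. At any tested probe set 3 rose and 4 fell, since Cnp also rose at another one (0.38, adjusted p = 0.0199) and Mbp and Mobp fell (-0.51 and -0.18, adjusted p = 0.00206 and 0.0388). Over all tested genes, 12.3% rose and 13.8% fell at any tested probe set. Of 8 microglia markers 1 rose (Csf1r) and 2 fell (C1qb and P2ry12). Of 6 thalamus markers none rose and 1 fell (Rora), and of 7 cortex layer markers 1 rose (Etv1) and 1 fell (Rorb). Other tested probe sets gave 1.08 for the thalamus marker Lef1 (adjusted p = 0.0159), with both control signals under 100, and -1.24 for the cortex layer marker Bcl11b (adjusted p = 7.73e-05). None of the 3 tested cerebellum markers passed, and the summed signals of these markers were 4293 to 4543 in stressed rats and 4203 to 4355 in nonstressed controls. Of 7 reference genes 1 rose (Pgk1) and 2 fell (Hprt1 and Ywhaz), with a median log2 fold change of -0.01.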
